A study of Mus musculus with 4 samples.

Results

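The genes described here are the solute carrier genes that were expressed in young mouse small intestinal organoids. Members were chosen by symbol and by measured level, as the rows whose symbol starts with Slc and a digit and whose highest value over the 4 libraries was 1 RPKM or more. RPKM is the usual read count scaled for gene length and library size. The rule leaves out 9 genes by name, namely Slc2a1, Slc2a2, Slc2a5, Slc5a1, Slc7a11, Slc10a2, Slc11a2, Slc14a1 and Slc40a1. It gave 212 members among 355 Slc rows and 22632 rows in all, under 211 symbols, because Slc38a9 has 2 rows. Of the other Slc rows, 103 lay above 0 and under the level and 31 were listed at 0 in every library. Just inside the level were Slc27a6 and Slc2a10, with highest values of 1.07 and 1.07 RPKM. Just outside it were Slc25a47 and Slc1a3, with 0.868 and 0.858 RPKM.

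RNA was sequenced from 4 organoid cultures harvested 24 hours after whole crypts were seeded, with 1 library per group. The Yap+/- organoids (Yap+/fl;VillinCre) kept 1 intact allele of Yap1, which encodes YAP, a co-activator of transcription. The Yap-/- organoids (Yapfl/fl;VillinCre) were labelled as having both copies deleted. Both groups carried Villin-Cre, which acts in intestinal epithelium. The YapTg line has a doxycycline-inducible, wild-type Yap transgene under a Cre-driven reverse tetracycline transactivator, whose Cre the labels do not name, and its organoids were grown without or with doxycycline, for which the labels give 1.5 mg/ml. No library had doxycycline without the transgene, so the drug and the transgene cannot be told apart. The labels give neither the number nor the age of the mice behind each culture. With 1 library per group there is no replicate check and no p-value, and every interval below is a 95% interval that covers counting error only.

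Solute carriers are membrane proteins that move sugars, amino acids, ions, metals, vitamins and metabolites across the cell surface or between compartments. In the small intestine, carriers of the brush border take nutrients up from the lumen and carriers of the basolateral membrane pass them on to the blood. Uptake at the brush border is often driven by the sodium gradient that the sodium pump maintains. Other members sit in mitochondria, in the Golgi apparatus, in vesicles or in lysosomes and serve every cell.

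Library totals solved from the values were between 44934170 and 75269003 reads, so a gene of 2 kb at 1 RPKM had between 89.9 and 151 reads. Between 187 and 199 members reached 1 RPKM in each library, and 173 did so in all 4. Yap1 followed the labels in direction, at 16.7 RPKM in Yap+/- and 3.35 in Yap-/- organoids, 25.1 without doxycycline and 1039 with it. Yap1 was thus 4.99-fold lower in Yap-/- organoids (4.75 to 5.23), with 2078 reads left. Whether these come from undeleted cells or from remaining exons was not tested. The words without Yap below name the Yap-/- genotype. All markers listed for enterocytes, goblet, Paneth, enteroendocrine and tuft cells and stem cells were above 0 in every library. Of 14 stromal and immune markers 4 reached 1 RPKM, and Col3a1 and Des were listed at 0 in all 4 libraries.

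Solute carrier levels in Yap-/- organoids lay close to those in Yap+/- organoids. Many differed with induction of the Yap transgene, most of them downward. A member counted as past 2-fold when the log2 ratio of RPKM plus a pseudocount of 1 reached 1 in size and the higher library of the pair reached 1 RPKM. Of 196 members at that floor in the first pair, 1 was higher in Yap-/- organoids, the vesicular zinc carrier gene Slc30a2, and 0 were lower. Over all genes at the same floor 0.336% were higher and 0.570% lower. Of 207 members at the floor in the second pair, 38 (18.4%) were lower and 16 (7.73%) higher with doxycycline. Over all genes at the floor these shares were 5.80% lower and 5.85% higher. The median log2 ratio of the members was 0.09 without Yap, against 0.05 over all genes, and -0.22 with induction, against -0.04. The intervals of all 54 members past 2-fold with induction excluded 1. These members were picked by their ratio in the same reads, so this adds no support to the calls. Exons of 11 of these 54 overlap another annotated gene (Slc10a5, Slc12a4, Slc13a2, Slc1a1, Slc27a2, Slc28a3, Slc30a10, Slc3a1, Slc43a2, Slc5a6 and Slc6a20a), and the strand setting of the counting is not known, so their reads may be shared.

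The level rule itself favours differences in some members. Of the 16 higher members, 5 were under 1 RPKM without doxycycline and entered the set through the induced library, namely Slc5a5, Slc7a3, Slc12a4, Slc25a43 and Slc6a14. When the floor was set on the mean of all 4 libraries, the counts with induction were 12 higher and 38 lower. That mean still includes the induced library. Slc5a5, with a mean of 2.65 RPKM, stayed among the 12 through its 10.2 RPKM there. Of the 38 lower members, 29 stood at 5 RPKM or more without doxycycline.

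Several intestinal cell type markers differed in the same pair. The enterocyte list had 9 lower and 0 higher genes of 20 with doxycycline, and the 20 summed to 6794 RPKM without and 2904 RPKM with the drug. The other 11 stayed within 2-fold, 4 of them with a ratio above 0, and the list median was -0.84 on the log2 scale. Fabp1 alone was at 1938 and 106 RPKM, so the sums are weighted to abundant genes. All 8 goblet markers were lower, summing to 2701 and 690 RPKM, as were 6 of 7 stem cell markers, with 538 and 56.6 RPKM summed over the 7. Olfm4 alone was at 424 and 22.0 RPKM, most of the stem cell sum without doxycycline. The median log2 ratio of the stem cell list was -1.62. Of the 8 enteroendocrine markers at the floor 5 were lower (153 and 75.7 RPKM summed over the 9 listed), and 3 of 7 Paneth markers (11727 and 7726 RPKM). Of 5 tuft markers 2 were at the floor and 0 past 2-fold (6.20 and 6.62 RPKM). Stromal and immune markers summed to 7.97 and 9.12 RPKM, with 1 of the 4 at the floor lower, and 0 of 8 cell cycle genes passed 2-fold. These libraries are whole organoids, so fewer cells of a type and less RNA per cell cannot be told apart, and the part of cell composition in the carrier results was not tested.

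**Figure D1:**
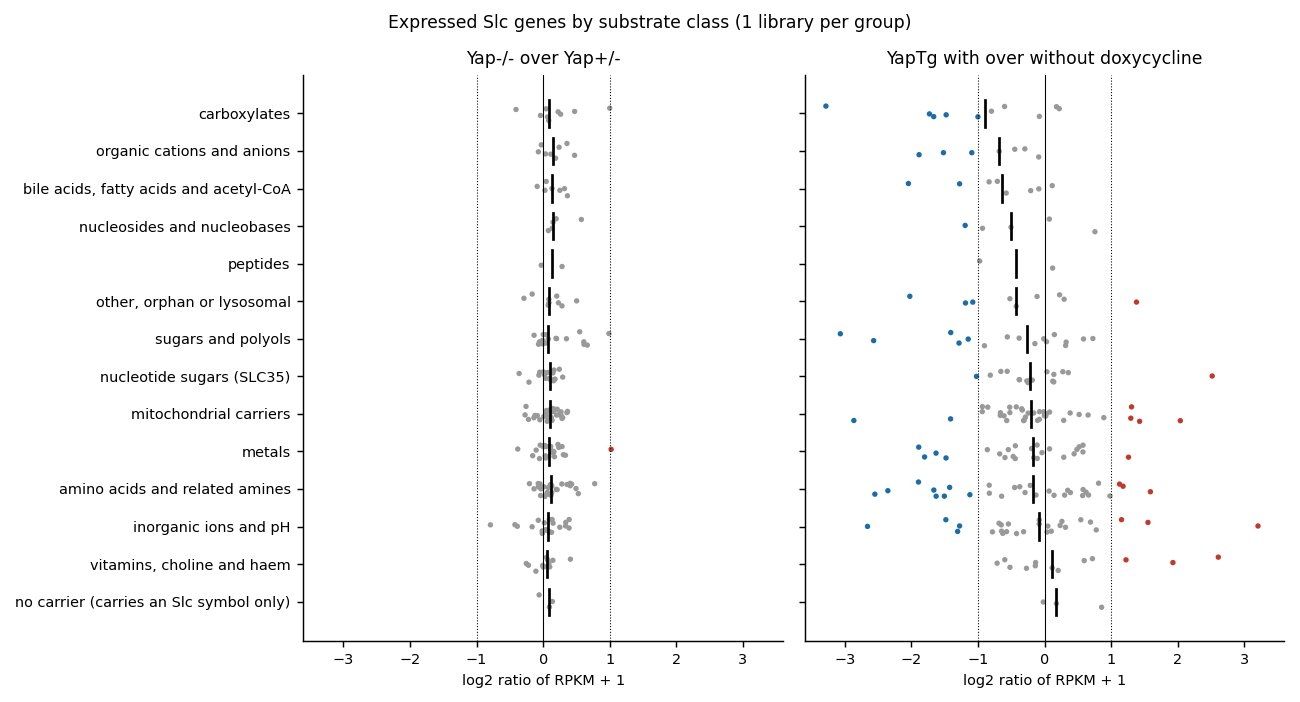
Log2 ratio of RPKM + 1 for each Slc member at the floor of its pair, in rows by substrate class, for Yap-/- over Yap+/- (left) and YapTg with over without doxycycline (right). Each point is a gene, red at least 2-fold higher and blue at least 2-fold lower, the short bar is the class median and dotted lines mark 2-fold. Slc30a2 is the 1 coloured point on the left, against 38 blue and 16 red points on the right.

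Class medians with induction ran from -0.90 for carboxylates to 0.18 for the 3 genes that carry an Slc symbol without encoding a carrier. Without Yap they ran from 0.05 to 0.15. The class counts with induction stand beside 5.80% lower and 5.85% higher over all genes at the floor. The plot of ratios by class shows that points beyond 2-fold on the right side occurred in most classes, with lower members in all but the peptide, vitamin and non-carrier classes.

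Amino acid carriers held 8 lower and 3 higher members of 30 at the floor with induction. The class median of -0.17 became 0.10 at a floor of 5 RPKM. Slc6a19, the main brush border carrier of neutral amino acids, was at 55.5 RPKM in Yap+/- and 60.8 in Yap-/- organoids, 53.9 without doxycycline and 8.38 with it. That is a 6.43-fold difference (interval 6.18 to 6.69) between the YapTg libraries, and the induced library stood alone below the other 3. Slc6a20a, which carries proline and other imino acids at the same membrane, was at 59.6, 64.3, 58.7 and 10.7 RPKM in the same order, 5.49-fold lower with induction.

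Slc3a1 encodes the heavy subunit that brings the cystine and dibasic amino acid carrier encoded by Slc7a9 to the brush border. It was at 75.3 RPKM in Yap+/- and 82.2 in Yap-/- organoids, 60.2 without doxycycline and 21.8 with it, 2.76-fold lower with doxycycline (2.65 to 2.88). Slc7a9 was at 18.1, 22.2, 23.7 and 12.9 RPKM and 1.84-fold lower, short of 2-fold, so the light subunit differed less than the heavy one. The ratio of Slc7a9 to Slc3a1 in RPKM was 0.394 in uninduced and 0.592 in induced organoids. Slc1a1, the brush border carrier of glutamate and aspartate, was at 3.21 RPKM without and 0.935 with doxycycline.

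Several carriers that release amino acids across the basolateral membrane were also lower. Slc7a8, the light chain of a neutral amino acid exchanger, was at 21.5 RPKM in Yap+/- and 28.9 in Yap-/- organoids, 26.3 without doxycycline and 6.35 with it, 4.14-fold lower with doxycycline. Slc43a2, a carrier of branched-chain amino acids, went from 7.66 to 1.73 RPKM (4.42-fold) and Slc16a10, a carrier of aromatic amino acids, from 14.8 to 4.56 RPKM (3.24-fold). Of the amine carriers, Slc6a4, the serotonin transporter, was at 10.1 RPKM without and 2.58 RPKM with doxycycline. Another basolateral exchanger chain, Slc7a7, did not share this, at 33.5 and 41.5 RPKM.

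The higher members of the class were carriers of large neutral or cationic amino acids. Slc7a5, which takes up leucine and other large neutral amino acids, was at 12.6 RPKM in Yap+/- and 13.3 in Yap-/- organoids, 16.4 without doxycycline and 37.0 with it, 2.25-fold higher with doxycycline (2.16 to 2.35). Its heavy chain Slc3a2, which also pairs with Slc7a7 and Slc7a8, was at 41.9, 44.7, 40.0 and 80.0 RPKM. The RPKM ratio of Slc3a2 was 2.00-fold, but its log2 ratio with the pseudocount was 0.98 and it missed the 2-fold rule. Slc7a8 per Slc3a2 was thus 0.658 in uninduced and 0.0794 in induced organoids, whereas Slc7a5 per Slc3a2 was 0.410 and 0.463. Slc7a3, a carrier of arginine and lysine, was 12.2-fold higher but low, at 0.218 and 2.66 RPKM. Slc6a14, a broad neutral and cationic amino acid carrier, was at 0.285 and 1.91 RPKM. Both Slc7a3 and Slc6a14 entered the set only through the induced library.

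A list of 9 amino acid carriers known from growing or amino-acid-starved cells was set beside these. With induction 2 of the 9 (22.2%) were at least 2-fold higher, Slc7a5 and Slc7a3, and 0 lower, with a median log2 ratio of 0.62. Over all genes at the floor 5.85% were higher and 5.80% lower. Slc7a3 reached 1 RPKM only in the induced library, so the level rule itself favoured its call. In the ratio above 0 but short of 2-fold were 6 more, among them Slc38a2 (52.5 and 81.4 RPKM), Slc7a1 (21.5 and 38.5 RPKM) and Slc3a2. The glutamine carrier Slc1a5 was the exception, at 33.0 and 30.1 RPKM. Without Yap the 8 members of this list at the floor lay between -0.21 and 0.09 on the log2 scale.

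**Figure D2:**
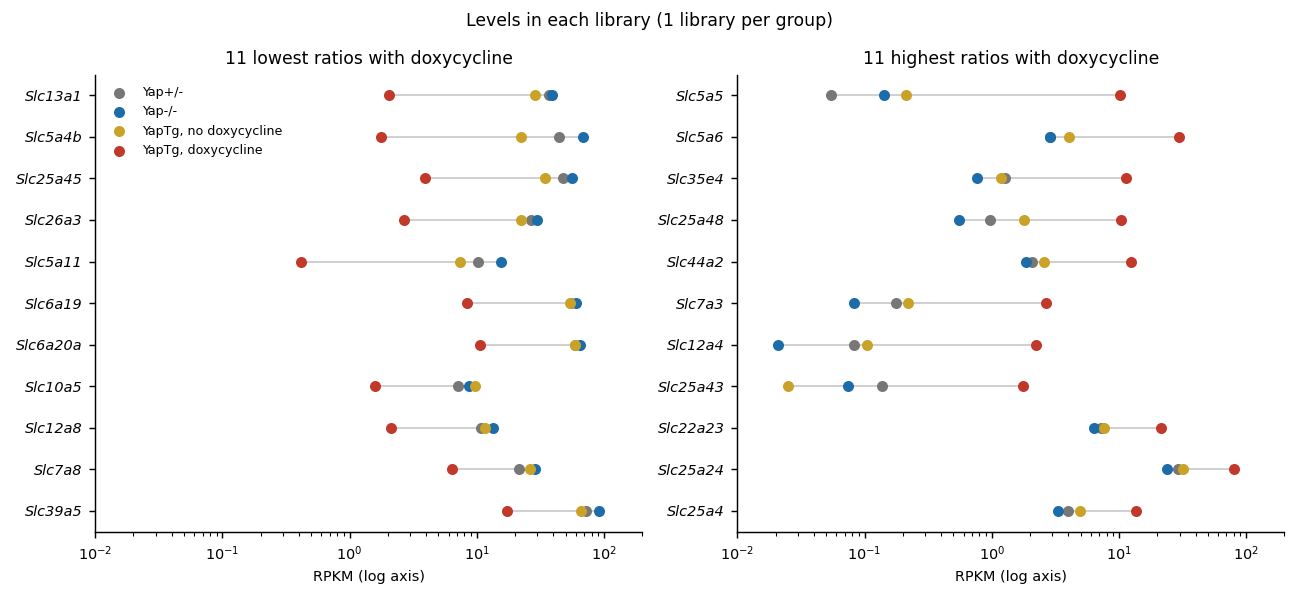
RPKM on a log axis in each of the 4 libraries for the 11 members with the lowest (left) and the 11 with the highest (right) log2 ratio of induced over uninduced YapTg organoids; grey lines span the 4 values. The induced library (red) stands below the other 3 for all 11 genes on the left, such as Slc6a19 at 8.38 RPKM. It stands above them for all 11 on the right, such as Slc5a6 at 29.8 RPKM. The genes were picked by this ratio, so the place of the induced library against the uninduced one was fixed by the choice. Slc5a5, Slc7a3, Slc12a4 and Slc25a43 reached 1 RPKM only in the induced library, so for them the level rule also set it above the others.

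Among sugar and polyol carriers 5 of 16 at the floor were lower and 0 higher with induction, with a median log2 ratio of -0.26. Slc5a4b, of the sodium and glucose cotransporter family, was at 44.5 RPKM in Yap+/- and 68.7 in Yap-/- organoids, 22.1 without doxycycline and 1.76 with it, 12.6-fold lower with doxycycline (11.4 to 13.96). The Yap+/- and uninduced libraries also differed 2.02-fold for this gene, so part of its range lies between reference cultures. Slc5a4a, a close copy that can share its reads, was at 1.39, 3.74, 1.245 and 0.200 RPKM. Slc5a11, an inositol cotransporter, was 17.8-fold lower with induction (14.3 to 22.4), at 7.38 and 0.414 RPKM. Slc37a4, which brings glucose 6-phosphate into the endoplasmic reticulum for glucose release, was at 26.9 and 9.50 RPKM. The hexose and urate carriers Slc2a7 and Slc2a9 were the other lower members, at 2.00 and 0.356 RPKM and at 2.95 and 0.619 RPKM.

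Carboxylate and sulphate carriers had the lowest median, with 5 of 10 members lower and 0 higher. Slc13a1, the brush border sulphate carrier, had the lowest ratio of all members with induction, at 37.3 RPKM in Yap+/- and 39.1 in Yap-/- organoids, 28.5 without doxycycline and 2.03 with it. The YapTg libraries differed 14.03-fold (13.2 to 14.9), and the 3 other libraries lay between 28.5 and 39.1 RPKM. Its relative Slc13a2, a carrier of citrate and other dicarboxylates, was at 12.1, 25.2, 10.8 and 3.25 RPKM, so its level was highest without Yap and lowest with induced Yap. Slc16a3, which exports lactate, was at 32.0, 23.9, 13.9 and 3.68 RPKM and was also 2.31-fold higher in Yap+/- than in uninduced YapTg organoids. Slc16a12 (5.62 and 0.997 RPKM) and Slc16a13 (8.78 and 3.88 RPKM) completed the lower members. Slc16a1, the widely expressed lactate and pyruvate carrier, differed little, at 30.6 and 28.9 RPKM.

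Carriers of organic ions, lipids and nucleosides had 6 lower members between them and 0 higher. Slc17a4, of the organic anion carriers, was at 29.1 RPKM in Yap+/- and 34.5 in Yap-/- organoids, 30.5 without doxycycline and 9.98 with it, 3.05-fold lower with doxycycline. The cation and proton exchanger Slc47a1 was at 1.76 and 0.294 RPKM without and with the drug. Of 7 organic ion carriers at the floor 3 were lower and none was above a ratio of 0. Slc10a5, of the bile acid carrier family, was 6.09-fold lower (9.69 and 1.59 RPKM) and Slc27a2, which takes up and activates very long fatty acids, 2.71-fold lower (13.5 and 4.99 RPKM). Slc27a4, the fatty acid carrier of enterocytes, was at 42.2 and 25.4 RPKM, short of 2-fold.

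The nucleoside carriers behaved unevenly. Slc28a3, a sodium-driven nucleoside carrier, was at 2.52 RPKM without and 0.540 with doxycycline. Slc28a1, another of this type, was at 3.26 RPKM in Yap+/- and 5.35 in Yap-/- organoids, 1.00 without doxycycline and 0.0495 with it, the last from 11 reads. Its RPKM ratio with induction was 20.3-fold (10.96 to 41.6), yet with the pseudocount it missed the 2-fold rule because both values were low. The equilibrative carrier Slc29a2 lay the other way, at 2.88 and 5.55 RPKM.

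Carriers of vitamins, choline and haem included 3 higher members of 13 and 0 lower. Slc5a6, which takes up biotin and pantothenate, was at 2.85 RPKM in Yap+/- and 2.86 in Yap-/- organoids, 4.05 without doxycycline and 29.8 with it, 7.35-fold higher with doxycycline (6.82 to 7.94). The 3 libraries without induction were close together and the pair without Yap differed by 1.00-fold (0.901 to 1.11). Slc5a6 exons overlap Atraid on the opposite strand. The choline carrier family genes Slc44a2 and Slc44a4 were 4.90-fold higher (2.56 and 12.5 RPKM) and 2.37-fold higher (32.7 and 77.7 RPKM). The folate carrier of the brush border, Slc46a1, was at 9.77 and 10.6 RPKM and the folate carrier Slc19a1 at 10.05 and 8.15 RPKM. The class median of 0.11 was -0.01 when the floor was set on the mean of all libraries, and the summed level was 130 RPKM without and 211 RPKM with the drug.

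Metal carriers had 4 lower members and 1 higher of 24 with induction. Slc39a5, which takes zinc up across the basolateral membrane, was at 72.9 RPKM in Yap+/- and 92.3 in Yap-/- organoids, 66.4 without doxycycline and 17.2 with it, 3.86-fold lower with doxycycline (3.70 to 4.04). Slc39a4, which takes zinc up at the brush border, was at 24.1, 18.3, 25.02 and 36.3 RPKM, so Slc39a5 was the more abundant per length in 3 libraries and Slc39a4 in the induced one. Slc30a10, a manganese exporter, was 9.99-fold lower (3.82 and 0.382 RPKM) and Slc41a2, a magnesium carrier, 4.16-fold lower (5.43 and 1.30 RPKM). Slc31a2, of the copper carrier family, was the higher member, at 2.81 and 8.13 RPKM.

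Slc30a2 moves zinc into secretory vesicles and is known from Paneth cells. It was at 3.21 RPKM in Yap+/- and 7.54 in Yap-/- organoids, 4.43 without doxycycline and 0.753 with it. The level was highest without Yap, 2.35-fold above Yap+/- (2.15 to 2.57), and lowest with induced Yap, 5.88-fold below uninduced organoids (5.02 to 6.91). The Paneth markers summed to 4746 and 9478 RPKM in the pair without Yap, with 3 of 7 at least 2-fold higher. Their part in the Slc30a2 values was not tested. The call without Yap was marginal, with a log2 ratio of 1.02, and fell under 1 with either other scaling of the libraries.

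Carriers of inorganic ions showed 4 lower and 3 higher members of 27. Slc26a3, the chloride and bicarbonate exchanger of the brush border, was at 26.8 RPKM in Yap+/- and 29.5 in Yap-/- organoids, 22.2 without doxycycline and 2.68 with it, 8.30-fold lower with doxycycline (7.82 to 8.82). Slc26a6, a related brush border anion exchanger, was at 84.0, 93.3, 73.2 and 42.1 RPKM and stayed short of 2-fold. The sodium and proton exchangers of the brush border parted. Slc9a3 was at 19.7, 25.2, 21.99 and 7.22 RPKM, 3.04-fold lower with induction, and Slc9a2 at 20.3, 14.9, 18.1 and 41.5 RPKM, 2.29-fold higher. The ratio of Slc9a2 to Slc9a3 was 1.03 in Yap+/- and 0.589 in Yap-/- organoids, 0.822 without doxycycline and 5.74 with it.

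Slc12a2, the basolateral sodium, potassium and chloride cotransporter that feeds chloride secretion, was at 59.4 RPKM in Yap+/- and 70.9 in Yap-/- organoids, 111 without doxycycline and 45.3 with it. It was 2.45-fold lower with doxycycline, but the uninduced library was itself 1.87-fold above Yap+/-, so the induced level lay nearer to the Yap+/- pair than to its own control. Slc4a5, a sodium bicarbonate cotransporter, was at 3.84 and 0.958 RPKM. Slc5a5, the iodide carrier best known from thyroid, was nearly off in 3 libraries, at 0.0540 RPKM in Yap+/- and 0.141 in Yap-/- organoids and 0.213 without doxycycline, against 10.2 RPKM with it. The YapTg libraries differed 47.8-fold (33.0 to 72.1), from 28 and 2242 reads. Slc12a4, a potassium and chloride cotransporter, was likewise at 0.105 and 2.24 RPKM.

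Mitochondrial carriers were the largest class, with 36 members, of which 2 were lower (5.56%) and 4 higher (11.1%) with induction. Over all genes these shares were 5.80% and 5.85%. The most abundant member of all was Slc25a5, an exchanger of ADP and ATP across the inner membrane, at 391 RPKM in Yap+/- and 436 in Yap-/- organoids, 335 without doxycycline and 270 with it. Its sister Slc25a4 was at 4.01, 3.30, 4.94 and 13.6 RPKM, 2.75-fold higher with doxycycline. Slc25a5 was thus 68.0 times Slc25a4 per length in uninduced and 19.9 times in induced organoids. The phosphate carrier Slc25a3 (110 and 110 RPKM) and the citrate carrier Slc25a1 (104 and 77.0 RPKM) stayed within 2-fold.

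Slc25a45, of the mitochondrial carrier family, was 8.89-fold lower with doxycycline, at 34.6 and 3.90 RPKM, and the ornithine carrier Slc25a15 2.73-fold lower, at 65.5 and 24.0 RPKM. Higher were Slc25a24, which exchanges ATP-magnesium for phosphate (32.0 and 80.6 RPKM, 2.52-fold), and Slc25a48 (1.78 and 10.4 RPKM, 5.85-fold). Slc25a43 was at 0.0250 RPKM from 2 reads in uninduced and 1.75 RPKM in induced organoids, a ratio of 70.1 with a wide interval of 19.2 to 583. Without Yap all 34 members of the class at the floor lay between -0.27 and 0.37 on the log2 scale.

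The nucleotide sugar family SLC35, which supplies the Golgi apparatus with substrates for glycosylation, had 1 lower and 1 higher member of 17. These shares, 5.88% each, were near the 5.80% lower and 5.85% higher over all genes. Slc35e4, whose substrate is not established, was at 1.27 RPKM in Yap+/- and 0.767 in Yap-/- organoids, 1.18 without doxycycline and 11.5 with it, 9.73-fold higher with doxycycline (8.30 to 11.5). Slc35e3 was the lower one, at 3.89 and 1.41 RPKM. Among carriers without a settled class, Slc12a8, Slc46a3 and Slc35f2 were lower (11.7 and 2.13, 5.34 and 1.78, 10.9 and 4.61 RPKM) and Slc22a23 higher (7.59 and 21.3 RPKM). The peptide carrier of the brush border, Slc15a1, was at 16.0 RPKM in Yap+/- and 19.7 in Yap-/- organoids, 11.7 without doxycycline and 5.47 with it. Its RPKM ratio was 2.14-fold and its log2 ratio -0.98, so it just missed the 2-fold rule. Slc9a3r1, which encodes a scaffold for brush border carriers and not a carrier, was at 138 and 251 RPKM.

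Read by position in the enterocyte, the lists of both membranes held lower members. Of 17 brush border nutrient and vitamin carriers at the floor, 6 were lower with induction (Slc13a1, Slc6a19, Slc6a20a, Slc13a2, Slc3a1 and Slc1a1) and 1 higher (Slc5a6), with a median log2 ratio of -0.83. Of 8 brush border ion and zinc carriers 2 were lower (Slc26a3 and Slc9a3) and 1 higher (Slc9a2), with a median of -0.55. Of 13 basolateral carriers 5 were lower (Slc7a8, Slc39a5, Slc43a2, Slc16a10 and Slc12a2) and 0 higher, with a median of -0.65. Without Yap none of these 3 lists had a member past 2-fold, and the medians were 0.13, 0.10 and 0.20. Over all genes the medians were -0.04 with induction and 0.05 without Yap. With induction 5.80% of all genes at the floor were lower and 5.85% higher. Of the 20 enterocyte markers 9 (45%) were lower and 0 higher in that pair, a larger share lower than in any of the 3 lists.

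**Figure D3:**
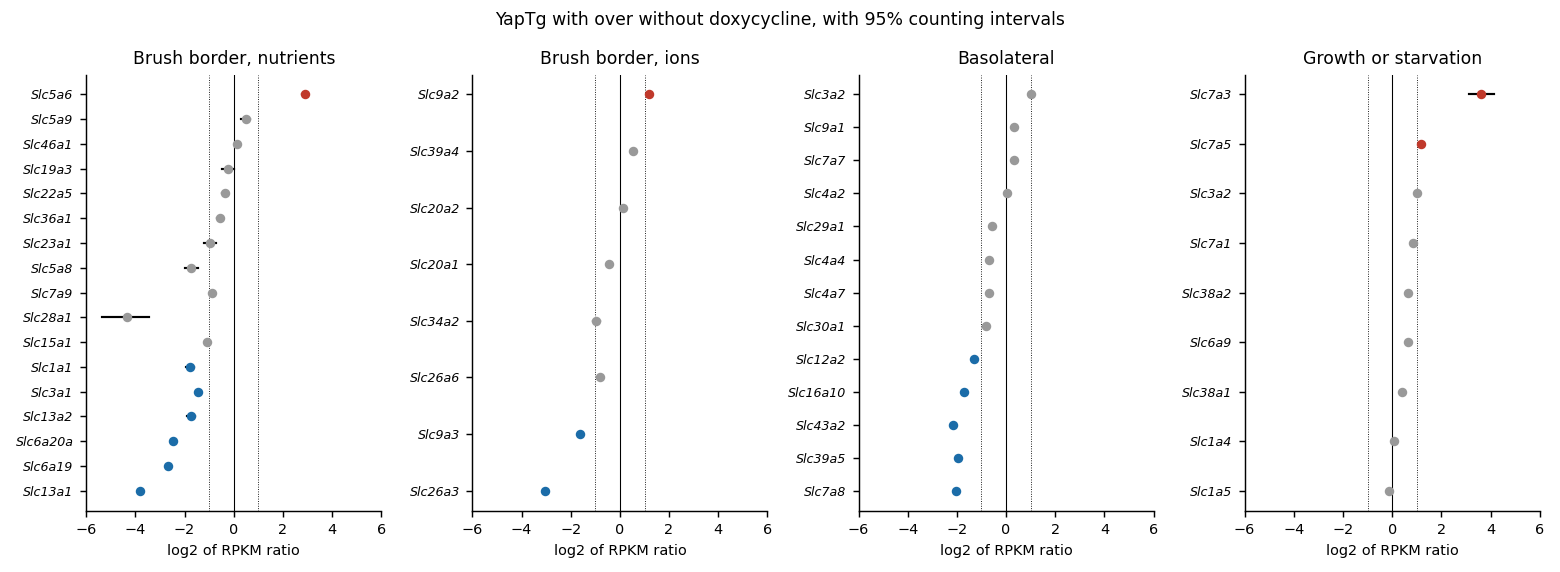
Log2 of the RPKM ratio, induced over uninduced YapTg organoids, for the members of 4 lists at the floor; bars are 95% counting intervals and are narrower than most points. Red and blue points passed the 2-fold rule upward and downward, which uses a pseudocount of 1, so grey points of low genes such as Slc28a1 can lie beyond the dotted 2-fold lines.

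Proteins that carriers depend on were followed in a list of 24 genes without an Slc symbol, 21 of them at the floor. With induction 7 were lower (33.3%) and 4 higher (19.0%), beside 5.80% and 5.85% over all genes. Atp1b1, the beta subunit of the sodium pump, was at 491 and 293 RPKM, short of 2-fold. Tmem27, a partner of amino acid carriers, was low in every library (0.404 to 1.01 RPKM). The potassium channel genes Kcnq1 and Kcne3 (2.42-fold each), the water channel genes Aqp1 and Aqp8 and the export pump gene Abcc2 were among the lower ones. The scaffold genes Pdzk1 (7.84 and 22.02 RPKM) and Ezr (96.4 and 279 RPKM), the pump gene Abcg2 and the prostaglandin carrier gene Slco2a1 were higher. Without Yap 0 of the 21 passed 2-fold.

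The differences without Yap were small and mostly upward. Of the 196 members at the floor, 148 had a ratio above 0 and 48 below, beside 7017 and 3693 of 10710 over all genes. Scaling by median ratios moved the median of all genes in this pair from 0.05 to 0.01. The signs counted here are from values without that scaling. Ratios of cell type markers were also mostly above 0 in this pair, as for 15 of 20 enterocyte markers (10146 RPKM summed in Yap+/- and 13485 in Yap-/- organoids) and 7 of 8 goblet markers (2638 and 3475 RPKM). All 7 stem cell markers (317 and 591 RPKM), all 7 Paneth markers, all 5 tuft markers (14.8 and 21.02 RPKM) and 8 of 9 enteroendocrine markers (277 and 325 RPKM) had ratios above 0. The sums are weighted to abundant genes. Fabp1 alone was at 3457 RPKM in Yap+/- and 5766 in Yap-/- organoids, and Olfm4 at 244 and 501 RPKM. Median log2 ratios were 0.14 for the enterocyte and 0.42 for the stem cell list. Past 2-fold were 3 Paneth markers and 1 stem cell marker, and the part of these cell types in the carrier ratios was not tested. After Slc30a2, the highest log2 ratios belonged to Slc13a2 (1.00, a 2.08-fold RPKM ratio just under the rule), Slc5a4a (0.99), Slc36a1 (0.77), Slc2a7 (0.66) and Slc5a4b (0.61). Slc36a1, a proton-driven amino acid carrier, was at 3.43 RPKM in Yap+/- and 6.59 in Yap-/- organoids, 4.74 without doxycycline and 3.20 with it. The lowest ratio was that of Slc9a4, a sodium and proton exchanger, at 1.11, 0.220, 1.14 and 2.45 RPKM. It missed the rule through the pseudocount, with a log2 ratio of -0.79 against a 5.05-fold RPKM ratio (3.77 to 6.86). Next were Slc9a2 (-0.42), Slc16a3 (-0.41) and Slc4a7, a bicarbonate cotransporter (-0.39). The dopamine transporter gene Slc6a3 was 2.16-fold higher in RPKM but low, at 0.615 and 1.33 RPKM.

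The 2 comparisons share no library, so their ratios can be set side by side. The 38 members lower with induction were all at the floor in the pair without Yap, where 35 of them (92.1%) were higher in Yap-/- than in Yap+/- organoids and 3 lower, with a median log2 ratio of 0.27. Over all genes lower with induction, 84.0% were higher without Yap, with a median of 0.24, and over all members at the floor in both pairs 74.9% were. These signs too are from values without scaling by median ratios. The 3 exceptions were Slc16a3, Slc30a10 and Slc16a13. Of the 10 higher members at the floor without Yap, 8 were lower in Yap-/- organoids, with a median of -0.19, beside 83.3% and -0.25 over all genes. Slc30a2 alone passed 2-fold in both comparisons. The genes with the largest smaller ratio in opposite directions were Slc30a2, Slc13a2, Slc5a4a, Slc2a7, Slc5a4b and Slc37a4 one way, and Slc9a4, Slc9a2, Slc39a4, Slc35e4, Slc35f5 and Slc25a24 the other way.

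**Figure D4:**
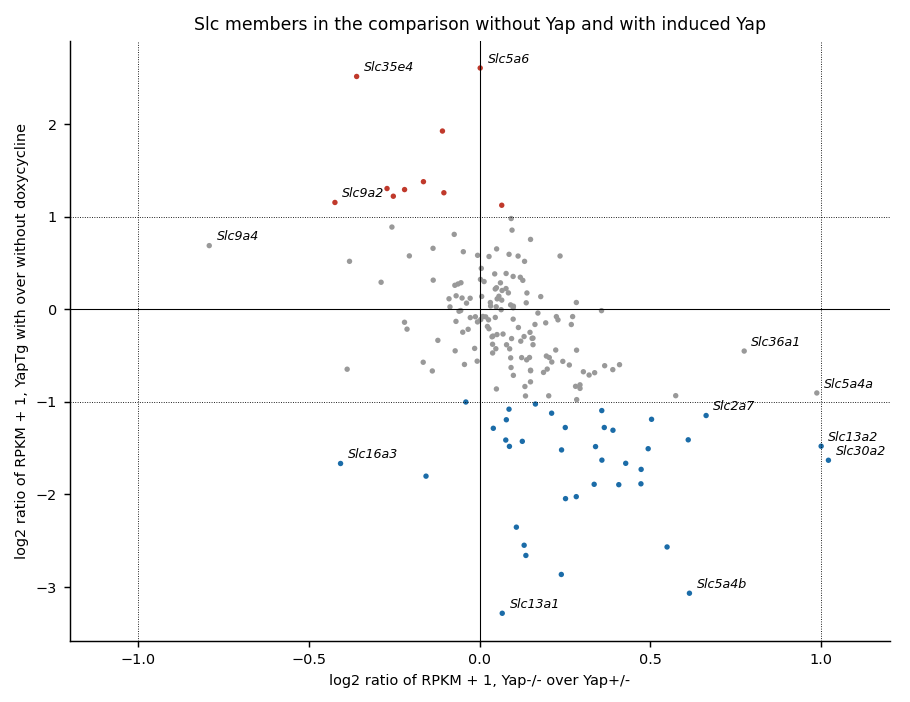
Log2 ratio of RPKM + 1 for the 191 members at the floor in both pairs, Yap-/- over Yap+/- on the x axis and induced over uninduced YapTg on the y axis; blue and red points were at least 2-fold lower or higher with induction and dotted lines mark 2-fold. Of the 38 blue points 35 lie right of 0, with Slc30a2 and Slc13a2 farthest right, and of the 10 red points 8 lie left of 0.

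As a yardstick, the Yap+/- library was set against the uninduced YapTg library, which share 1 library with each comparison. Of 201 members at the floor 2 were higher in Yap+/- (beside 1.11% of all genes) and 0 lower (beside 0.726%). They were Slc16a3 (2.31-fold, 2.22 to 2.40) and Slc28a1 (3.25-fold, 2.69 to 3.96). The median absolute log2 ratio of the members was 0.22 in this pair, 0.13 without Yap and 0.57 with induction. The median difference without Yap was thus smaller than the one between these reference cultures. They differ in line and genotype, with Yap1 1.50-fold lower in Yap+/-, so this pair does not measure the spread between like cultures. Scaling by median ratios moved the median of all genes in this pair from -0.11 to 0.02, and the 0.22 is from values without that scaling.

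The promoters of members past 2-fold with induction were searched for short motifs, in the 250 bases before each RefSeq start (build GRCm38.p6) and on both strands. The letters were GGAATG for TEAD, the DNA-binding partner of YAP, TGANTCA for AP-1 and CAAAGTCCA for HNF4, a factor of enterocyte genes. RefSeq promoters were found for 31 of the 38 lower genes, with 38 promoters, and for 13 of the 16 higher genes, with 15. The TEAD letters were in 13.2% of the promoters of lower members, 13.3% of those of higher members and 12.6% of all 32851 promoters in the table. The AP-1 letters were in 5.26%, 6.67% and 6.75%. Among the promoters of genes at 1 RPKM in any library, which share the level rule with the members, TEAD letters were in 10.8%, AP-1 letters in 4.58% and HNF4 letters in 0.446%. Among the other members the shares were 13.6% for TEAD and 4.32% for AP-1. The HNF4 letters were in 1 promoter of a lower member (2.63%), in 0 of a higher member and in 0.384% of all promoters. The shares of lower and higher members rest on 5 and 2 promoters for TEAD, on 2 and 1 for AP-1 and on 1 and 0 for HNF4, and a match is a description of letters only. The 3 promoters printed here, picked once the matches were known, are that of Slc3a1, with the 1 HNF4 match, and those of a lower and a higher member with a TEAD match, with matched letters in capitals. Slc3a1 is the heavy subunit of the cystine carrier (chr17:85028097-85028346, plus strand), with AP-1 letters from 140 to 134 and HNF4 letters from 39 to 31 bases before the start. Slc5a4b, of the glucose cotransporter family, lies at chr10:76111019-76111268 on the minus strand, with TEAD letters from 242 to 237 bases before the start. Slc25a24, the ATP-magnesium carrier, lies at chr3:109122899-109123148 on the plus strand, with TEAD letters from 248 to 243 bases before the start.
Slc3a1: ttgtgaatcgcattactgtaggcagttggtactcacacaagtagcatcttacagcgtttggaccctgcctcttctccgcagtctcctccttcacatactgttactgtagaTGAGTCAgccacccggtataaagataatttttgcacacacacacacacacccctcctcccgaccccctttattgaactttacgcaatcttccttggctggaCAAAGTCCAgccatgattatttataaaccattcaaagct
Slc5a4b: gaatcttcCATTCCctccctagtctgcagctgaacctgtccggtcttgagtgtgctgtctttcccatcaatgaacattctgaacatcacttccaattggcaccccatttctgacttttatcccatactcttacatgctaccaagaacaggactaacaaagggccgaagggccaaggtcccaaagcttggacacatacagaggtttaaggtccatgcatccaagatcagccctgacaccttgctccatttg
Slc25a24: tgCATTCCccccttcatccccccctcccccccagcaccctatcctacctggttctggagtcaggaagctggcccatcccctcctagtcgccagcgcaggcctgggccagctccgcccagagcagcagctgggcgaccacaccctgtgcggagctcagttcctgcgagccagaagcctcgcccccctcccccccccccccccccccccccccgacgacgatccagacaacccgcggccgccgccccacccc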

How the data were processed

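RNA-seq values of 4 libraries, 1 per group by the genotype and source labels, came as 1 table of 22632 genes; 0 of its columns were left unused. Per the submitters' processing notes, CASAVA 1.8, FastQC and TopHat 1.4.1 were used with the mm9 build; for the counter, annotation and strand setting, the sources used here give nothing. The deposited values were taken as RPKM from their form, since no header names the unit. Totals were solved from exon lengths in GENCODE M21, and each gene's reads from the whole length nearest to that annotation which made reads whole within 0.05 in every library. A length was found for all 17378 genes above 0, and for 99 of 212 members it equalled the annotated one. More than 1 length could fit a gene, such as 5 for Slc6a19 and 31 for Slc5a5, so a found length is no check on the recovery. Read numbers and interval widths of members without the annotated length are less certain. Folds, which are RPKM ratios, do not depend on the length. The design foresaw counts or RPKM, and RPKM applied.

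Log2 ratios used RPKM plus 1, which understates differences of low genes. Folds have exact conditional (Clopper-Pearson) 95% intervals; reads may include PCR copies, so these cover counting error only. No test was made, with 1 library per group. Substrate classes follow SLC family numbers, with mixed families split by gene; Slc4a1ap was moved to the non-carriers after its symbol was seen. Members, classes and lists were chosen with earlier results of these data known. Genes were named as the 12 highest and 12 lowest ratios per comparison, the 2 furthest per class, 6 per opposite direction, the 8 most abundant, and members of the carrier lists; Slc16a1, Slc16a13, Slc2a9, Slc6a4, Slc6a14, Slc19a1, Slc29a2, Slc35f2, Slc41a2 and Slc4a5 were added after their values were seen. Python 3.11.15, pandas 2.3.3 and scipy 1.17.1 were used. Pairs of related carriers set as ratios were also picked after their values were seen, and the promoter window of 250 bases was set late so as to end at the start site. The recovery and calling were tested on simulated data. Some genes are not reported here.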

Additional observations from a re-analysis of the deposited data

How the results depend on the processing

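No paired analysis was possible because each group has 1 library and no replicate number. The alternatives were 2 pseudocounts, 3 floors, 2 scalings, 4-fold in place of 2-fold, a required counting interval clear of 1, and the 9 left-out genes put back. With induction, the counts of 16 higher and 38 lower members became 9 and 20 with a pseudocount of 5, and 4 and 9 at 4-fold; otherwise they stayed within 1.5 times. Over 7 alternatives, 29 to 54 of the 54 calls were kept and 0 changed direction. The median log2 ratio of -0.22 was -0.071 without a floor. That alternative takes in all 303 Slc rows above 0 in the pair, also those under the level that made a gene a member, so it describes a wider gene set. Without Yap, the count of 1 higher became 3 with a pseudocount of 0.1 and 0 with a pseudocount of 5, with median-ratio scaling, with upper-quartile scaling and at 4-fold. The count of 0 lower became 1 with a pseudocount of 0.1 and 1 with the left-out genes put back. Class medians changed sign with a move of over 0.1 on 4 occasions: amino acids to 0.10 and nucleosides to 0.13 at a floor of 5 RPKM, vitamins to -0.011 with a floor on the mean of 4 libraries, all with induction, and peptides to -0.0075 in the pair without Yap over all 5 peptide carrier rows above 0, against the 2 members. The cause was not tested. Class counts, also planned, were not recomputed, and medians within 0.1 were taken as unmoved, a limit set after the design. Depth limits low members: Slc25a43 had 2 reads and Slc28a1 11 in the library where each was lower.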
